A study of Mus musculus with 8 samples.

Results

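The genes described here are 9 nuclear factors that define the nephron progenitor, the mesenchymal cell of the embryonic kidney from which nephrons are made: Six2, Cited1, Eya1, Osr1, Sall1, Wt1, Pax2, Meox1 and Meox2. They were chosen by name as core factors of the Six2-positive cap mesenchyme, and all 9 were found among the 24539 genes of the count table. Their levels were measured by RNA sequencing of progenitors isolated by fluorescence sorting from mouse kidneys at E18.5, late in gestation, in 8 libraries that form 4 groups of 2. Every group carried Six2GFPcre, which makes a fusion of green fluorescent protein and Cre recombinase in cells where Six2 is active, so that the same construct marked the cells for the sort and recombined Smo in them. Smo encodes Smoothened, the membrane protein that passes the Hedgehog signal into the cell, and the study varied its dose. The KO-labelled libraries came from Smo c/c; Six2GFPcre kidneys, with both Smo alleles conditional, and the Het-labelled libraries from Smo c/+; Six2GFPcre kidneys, with one conditional and one wild-type allele. The WT-labelled libraries were Smo +/+; Six2GFPcre. The SmoM2-labelled libraries were Rosa26 SmoM2/+; Smo +/+; Six2GFPcre, which adds a Rosa26 allele that makes SmoM2, an active form of Smoothened, where Cre is present. The labels do not say whether 2 libraries of a group came from separate embryos or litters, so p-values measure only the spread between these libraries.

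Progenitors of the cap mesenchyme surround the tips of the ureteric bud and either renew themselves or turn into the epithelium of the nephron under Wnt signals from the bud. Six2 keeps them undifferentiated, and cells that carry both Six2 and Cited1 are the least committed of the cap. As cells commit they lose Cited1 first and Six2 later, while genes such as Wnt4, Lhx1 and Fgf8 come on. Eya1, Sall1, Osr1, Wt1 and Pax2 are each needed for the early kidney mesenchyme, and Meox1 and Meox2 are homeobox genes found in the cap.

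The table listed between 4422305 and 10305398 counts per library, and the KO- and Het-labelled libraries were the shallower ones, with at most 7577590. Smo itself was at 13.1 and 11.1 CPM (counts scaled to a common library size) in the KO-labelled libraries, at 14.4 and 23.9 in the Het-labelled, at 363 and 375 in the WT-labelled and at 605 and 629 in the SmoM2-labelled ones. The Het-labelled libraries therefore held nearly as little Smo as the KO-labelled ones, which goes against a label of one intact allele, and all groups are named by their labels below. Both KO-labelled libraries were male and both Het-labelled libraries female, whereas the WT- and SmoM2-labelled groups had a male replicate 1 and a female replicate 2. Genes that respond to tissue dissociation, a list of 12 with Fos, Jun and Egr1, summed to 4286 and 6234 CPM in the KO-labelled, 8356 and 8275 in the Het-labelled, 3023 and 3200 in the WT-labelled and 3457 and 4958 in the SmoM2-labelled ones. Nphs1, a slit diaphragm gene of podocytes, was at or below 0.28 CPM in all 8 libraries. Erythroid genes were low but not even: their list of 6 summed to between 13.7 and 45.2 CPM in the libraries with a conditional allele and to between 2.77 and 7.87 CPM in the WT- and SmoM2-labelled ones. These sums count both Hba-a1 and Hba-a2, which had identical values in every library. An immune list of 7 summed to 22.1 and 0.871 CPM in the KO-labelled libraries and to between 6.15 and 16.9 CPM in the others. An endothelial list of 7 summed to 27.0 and 19.4 CPM in the KO-labelled libraries and to between 1.07 and 4.79 CPM in the others. Most of it in the KO-labelled libraries was Cldn5, at 22.1 and 17.0 CPM. The stromal list of 11 summed to between 617 and 1116 CPM and did not move one way: with both conditional genotypes set against both Smo +/+ genotypes, edgeR called Tcf21, Meis1 and Acta2 higher and Foxd1 lower among the 10 that were tested. Of all tested genes, 43.5% passed in that contrast and 22% passed as higher, so these calls do not set the stromal list apart. The highest and the lowest stromal sum were both KO-labelled, at 1116 CPM in replicate 1 and 617 CPM in replicate 2. Tcf21 was at 114 to 134 CPM in the libraries with a conditional allele and at 22.0 to 41.6 CPM in the others, and Meis1 at 86.4 to 114 against 10.4 to 17.0 CPM. Foxd1, which defines the stroma, was at 12.8 and 3.70 CPM in the KO-labelled, 22.5 and 14.6 in the Het-labelled, 197 and 171 in the WT-labelled and 385 and 301 in the SmoM2-labelled ones. The part of these other genes in the results was not tested, except that the dissociation genes entered 1 alternative fit.

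Per base of transcript Six2 was the most abundant of the 9 in every library. Its RPKM (the authors' unit, which divides the reads by gene length and library size) was 733 and 602 in the KO-labelled, 812 and 677 in the Het-labelled, 536 and 426 in the WT-labelled and 480 and 478 in the SmoM2-labelled libraries, which placed it between rank 36 and rank 96 of all genes. Six2 alone made up between 42.1% and 46.4% of the RPKM of the 9 factors together. Since the cells were sorted through Six2GFPcre, a high Six2 level is part of how they were obtained. The mean RPKM in the WT-labelled libraries then fell in the order Six2 (481), Pax2 (150), Wt1 (142), Sall1 (118), Eya1 (82.4), Cited1 (80.3), Osr1 (28.0), Meox1 (16.6) and Meox2 (2.68). Pax2, Wt1 and Sall1 spanned 131 to 170, 125 to 159 and 107 to 128 RPKM there, so these neighbours in the order were not separated by their replicates, and neither were Eya1, at 79.6 to 85.2, and Cited1, at 64.2 to 96.5. In the Het-labelled libraries Cited1 stood second, with a mean of 234 RPKM, although its range of 197 to 271 overlapped that of Pax2, at 196 to 210. Together the 9 factors took 0.376% to 0.542% of all RPKM in the 4 libraries with a conditional allele and 0.286% to 0.354% in the WT- and SmoM2-labelled ones.

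Six2 (chromosome 17, 85662736 to 85688254 in GRCm38, minus strand, RefSeq) encodes the homeobox factor that holds progenitors in the undifferentiated state. On the scale of scaled library size, used for all levels below, it was at 1826 and 1475 CPM in the KO-labelled, 2105 and 1770 in the Het-labelled, 1333 and 1132 in the WT-labelled and 1264 and 1264 in the SmoM2-labelled libraries. All 4 libraries with a conditional Smo allele thus lay above all 4 Smo +/+ libraries. Eya1 (chromosome 1, 14168953 to 14311035, minus strand), a phosphatase that acts as the co-activator of Six2 and its relatives, showed no such step. It was at 328 and 427 CPM in the KO-labelled, 486 and 413 in the Het-labelled, 437 and 436 in the WT-labelled and 497 and 444 in the SmoM2-labelled libraries. The lowest 2 of its 8 values were a KO-labelled and a Het-labelled library, and the ranges of the Het-labelled group enclosed those of the WT-labelled group.

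Sall1 (chromosome 8, 89027242 to 89044162, minus strand), a zinc finger factor that binds together with Six2 at progenitor genes, was at 810 and 852 CPM in the KO-labelled, 1034 and 1155 in the Het-labelled, 794 and 710 in the WT-labelled and 826 and 789 in the SmoM2-labelled libraries. Both Het-labelled values lay above the 6 others, which spanned 710 to 852 CPM. Osr1 (chromosome 12, 9574442 to 9581500, plus strand), a zinc finger factor of the intermediate mesoderm that also acts with Six2, was at 132 and 90.6 CPM in the KO-labelled, 178 and 120 in the Het-labelled, 106 and 28.1 in the WT-labelled and 82.1 and 61.4 in the SmoM2-labelled libraries. The WT-labelled replicates of Osr1 differed 3.79-fold from each other, and only 0.357% of the 13459 tested genes had a larger gap between those 2 libraries. Every comparison of Osr1 with the WT-labelled group carries that spread.

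Cited1 (chromosome X, 102247378 to 102252181, minus strand), a transcriptional co-regulator without a DNA-binding domain that marks the least committed progenitors, was at 385 and 271 CPM in the KO-labelled, 506 and 372 in the Het-labelled, 173 and 123 in the WT-labelled and 107 and 85.4 in the SmoM2-labelled libraries. No library of the KO- or Het-labelled groups overlapped the WT-labelled ones, and both SmoM2-labelled values lay below both WT-labelled values. Cited1 is X-linked, and by sex the values were 385 and 271 CPM in the male KO-labelled libraries and 173 CPM in the male WT-labelled library, with 506 and 372 CPM in the female Het-labelled libraries and 123 CPM in the female WT-labelled library. Each sex has 1 WT-labelled library, so these values allow no test within a sex.

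Meox1 and Meox2 are paralogous homeobox genes known from the somites and the cap. Meox1 (chromosome 11, 101877510 to 101894354, minus strand) was at 168 and 115 CPM in the KO-labelled, 104 and 127 in the Het-labelled, 35.8 and 54.0 in the WT-labelled and 65.0 and 65.6 in the SmoM2-labelled libraries. Meox2 (chromosome 12, 37108540 to 37179534, plus strand) was the scarcest factor, with 44 to 253 counts per library, at 18.2 and 14.6 CPM in the KO-labelled, 33.8 and 26.3 in the Het-labelled, 10.3 and 4.79 in the WT-labelled and 5.73 and 5.20 in the SmoM2-labelled libraries. For both genes the KO- and Het-labelled libraries lay above all WT- and SmoM2-labelled libraries. The order of the other groups was not shared: Meox1 was lowest in the WT-labelled libraries, whereas for Meox2 the SmoM2-labelled values lay inside the WT-labelled range.

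Wt1 (chromosome 2, 105126529 to 105173614, plus strand) encodes a zinc finger factor of the progenitor that later marks podocytes. It was at 536 and 580 CPM in the KO-labelled, 593 and 641 in the Het-labelled, 581 and 486 in the WT-labelled and 452 and 452 in the SmoM2-labelled libraries. Pax2 (chromosome 19, 44746601 to 44838269, plus strand), a paired-box factor that the ureteric epithelium and nascent nephrons also use, was at 588 and 619 CPM in the KO-labelled, 731 and 789 in the Het-labelled, 467 and 650 in the WT-labelled and 447 and 533 in the SmoM2-labelled libraries. Both genes were highest in the Het-labelled group and lowest on average in the SmoM2-labelled group. For both the KO-labelled values lay inside the range of the WT-labelled ones. Over the 8 libraries the podocyte list of 7 genes summed to between 48.7 and 63.3 CPM. The collecting duct list of 9 was not even. It summed to 35.2 and 33.3 CPM in the KO-labelled and 25.9 and 29.9 in the Het-labelled libraries. In the WT-labelled libraries it summed to 40.1 and 41.2 CPM, and in the SmoM2-labelled ones to 61.0 and 73.7. The part of these lists in the values of Wt1 and Pax2 was not tested.

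**Figure D1:**
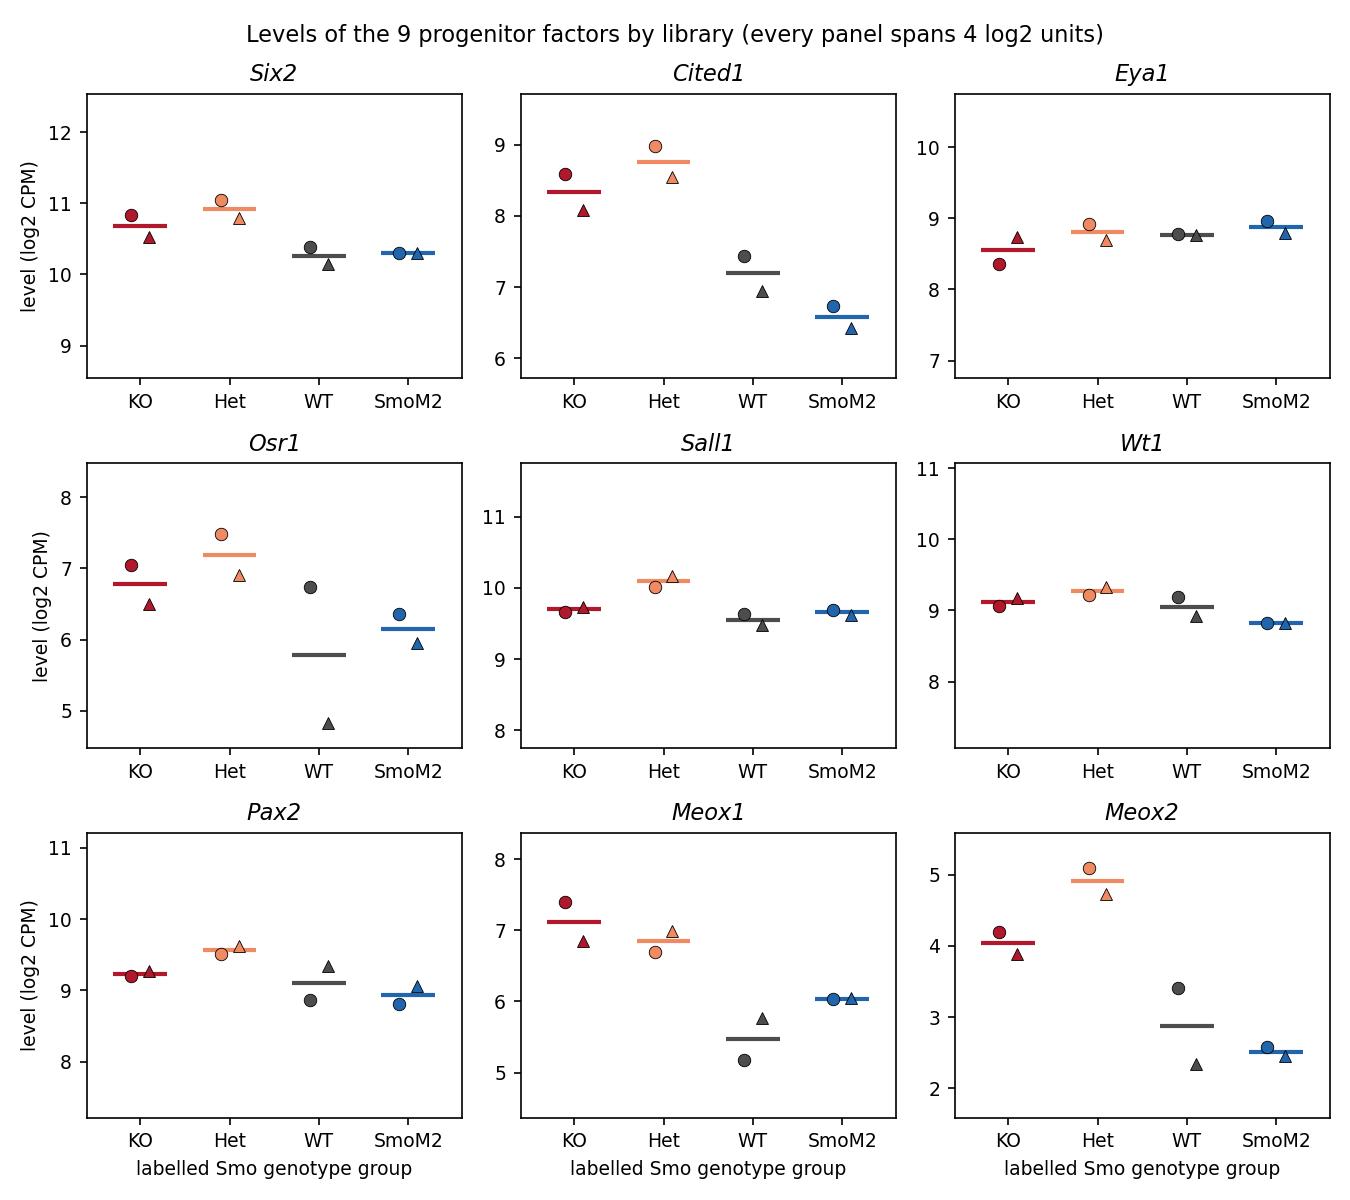
Level of each of the 9 factors (log2 CPM, each panel spanning 4 log2 units) in every library of the 4 labelled groups, with circles for replicate 1, triangles for replicate 2 and bars for group means. Cited1, Meox1 and Meox2 step down from the KO- and Het-labelled libraries to the WT- and SmoM2-labelled ones, Eya1 spans 0.60 and Wt1 0.50 log2 units over all 8 libraries, and Osr1 has WT-labelled replicates that lie 3.79-fold apart.

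An edgeR test for any difference among the 4 groups passed for Cited1, Meox1, Meox2, Six2, Sall1 and Pax2, which are 6 of 9, where 41% of all tested genes passed. Cited1, Meox1 and Meox2 rose in the KO-labelled libraries against the WT-labelled ones, and the other 6 factors did not pass the test. Meox1 was 3.15-fold higher (log2 change 1.65, SE 0.22, edgeR quasi-likelihood test, Benjamini-Hochberg adjusted p 0.000601), Cited1 2.21-fold higher (1.15, SE 0.22, edgeR adjusted p 0.00424) and Meox2 2.14-fold higher (1.10, SE 0.32, edgeR adjusted p 0.0304). That is 3 of 9, or 33.3%, where 23% of all tested genes passed the same threshold of 0.05 and 11.6% passed it as higher. The median log2 change was 0.42 over the 9 factors and 0.03 over all tested genes. In sorted bulk samples, more cells of a type and more RNA per cell cannot be told apart. Six2, which defines the sort, had a log2 change of 0.42 with a 95% interval of 0.10 to 0.75, not adjusted for the number of genes, and an edgeR adjusted p of 0.0600. Osr1 had a log2 change of 0.72 with the widest interval of the 9, from -0.25 to 1.69. Eya1 was the only factor with a negative change, -0.21, and its interval of -0.53 to 0.12 allows a fall as well as no change. Intervals were -0.13 to 0.41 for Sall1, -0.22 to 0.34 for Wt1 and -0.24 to 0.46 for Pax2, and a p-value above the threshold does not show that these genes were equal in both groups. The call on Meox2 was lost when either KO-labelled replicate or WT-labelled replicate 2 was left out, with log2 changes of 0.93, 1.24 and 0.63 and edgeR adjusted p of 0.170, 0.0564 and 0.148. It was also lost with sex (0.84, edgeR adjusted p 0.0612) or the mean level of the dissociation genes (1.61, edgeR adjusted p 0.0565) as a covariate. Six2 passed without KO-labelled replicate 2 (0.56, edgeR adjusted p 0.0454) but had 0.26 without KO-labelled replicate 1 (edgeR adjusted p 0.351) and 0.28 without WT-labelled replicate 2 (edgeR adjusted p 0.303). After removal of trends with gene length and GC content it had 0.14 (edgeR adjusted p 0.505). Six2 passed with DESeq2 (0.40, DESeq2 adjusted p 0.0355) and with totals implied by RPKM (0.47, edgeR adjusted p 0.0344). It also passed without the low-count filter (edgeR adjusted p 0.0183) and with a replicate block (edgeR adjusted p 0.0365). It did not pass with sex (0.37, edgeR adjusted p 0.0951) or the dissociation genes (0.59, edgeR adjusted p 0.107) as a covariate. Nor did it with only those groups in the fit (0.39, edgeR adjusted p 0.139). Osr1 moved most with the WT-labelled library left out, with 1.98 without replicate 1, the high one (edgeR adjusted p 0.00180), and 0.029 without replicate 2, the low one (edgeR adjusted p 0.955).

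In the Het-labelled libraries 5 factors rose against the WT-labelled ones: Meox2, Cited1, Meox1, Six2 and Sall1. Meox2 was 3.94-fold higher (log2 change 1.98, SE 0.31, edgeR adjusted p 0.00137), Cited1 2.96-fold (1.57, SE 0.22, edgeR adjusted p 0.000845) and Meox1 2.57-fold (1.36, SE 0.21, edgeR adjusted p 0.00148). Six2 was 1.57-fold higher (0.65, SE 0.15, edgeR adjusted p 0.00921) and Sall1 1.46-fold (0.54, SE 0.12, edgeR adjusted p 0.00938). These 5 of 9, or 55.6%, compare with 25.3% of all tested genes, 13.1% as higher, and the median log2 change of the 9 factors was 0.65 against -0.02 for all tested genes. Osr1, with 1.14 (edgeR adjusted p 0.0777), and Pax2, with 0.44 (edgeR adjusted p 0.0637), did not pass, and Eya1 had a log2 change of 0.04 with an interval of -0.28 to 0.37. The dissociation genes moved the same way in this comparison, with 8 of 12 higher, against 6 of 12 in the KO-labelled libraries. With their mean level as a covariate Cited1 was the only factor still called, while Meox2 had a log2 change of 3.05 (edgeR adjusted p 0.0901), Meox1 one of 1.39 (0.196), Six2 one of 1.02 (0.172) and Sall1 one of 0.61 (0.339), each with the edgeR adjusted p in brackets. None of these log2 changes was smaller than in the main fit. The mean level, in log2 CPM, was 7.57 and 7.68 in the Het-labelled and 6.46 and 6.63 in the WT-labelled libraries. This fit therefore cannot fully separate it from genotype. Six2 also lost its call without Het-labelled replicate 1 (0.49, edgeR adjusted p 0.111) or WT-labelled replicate 2 (0.52, edgeR adjusted p 0.0597), and when trends with gene length and GC content were removed (0.27, edgeR adjusted p 0.172). Its transcripts are 62.3% G and C, more than in 98.7% of the tested genes. Sall1 lost its call without Het-labelled replicate 2 (0.44, edgeR adjusted p 0.113) or WT-labelled replicate 2 (0.44, edgeR adjusted p 0.0632). Pax2 gained one without WT-labelled replicate 2 (0.68, edgeR adjusted p 0.0159), and had 0.22 without WT-labelled replicate 1 (edgeR adjusted p 0.347). Osr1 gained one without WT-labelled replicate 1 (2.41, edgeR adjusted p 0.000562) and had 0.46 without WT-labelled replicate 2 (edgeR adjusted p 0.253). Both comparisons use the same 2 WT-labelled libraries, so they are not independent of each other.

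No factor passed the threshold between SmoM2- and WT-labelled libraries, where 0.223% of all tested genes did. By edgeR 2 of the 9 had an unadjusted p under 0.05, as 7.7% of all tested genes did, and DESeq2 called 0, where it called 0.647% of all genes it tested. Cited1 had the largest negative log2 change, -0.62 with an interval of -1.10 to -0.15 (edgeR p 0.0143, adjusted p 0.437), and Meox1 the largest positive one, 0.54 with an interval of 0.08 to 1.01 (edgeR p 0.0261, adjusted p 0.548). Six2 had a log2 change of 0.04 with an interval of -0.29 to 0.36. Intervals of Eya1, at -0.22 to 0.43, and Sall1, at -0.17 to 0.37, were of like width, and that of Wt1 ran from -0.52 to 0.04. The interval of Osr1 (-0.87 to 1.05) allowed larger differences either way, and that of Meox2 (-1.21 to 0.24) a larger fall. The median over the 9 factors was 0.04.

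Between KO- and Het-labelled libraries, both of which carry a conditional Smo allele, no factor passed either, while 9.43% of all tested genes did. Here edgeR gave 2 factors an unadjusted p under 0.05, against 27.4% of all tested genes, and DESeq2 called 1, Sall1, against 12.2%. Their direction was mostly one way: 8 of 9 had a negative log2 change, with a median of -0.33 against 0.02 for all tested genes, and Meox1, at 0.29 with an interval of -0.16 to 0.75, was the exception. Meox2 had the largest difference, -0.88 with an interval of -1.54 to -0.22 (edgeR adjusted p 0.0875), and Sall1 a smaller one, -0.40 with an interval of -0.67 to -0.13 (edgeR adjusted p 0.0655). Both passed when WT-labelled replicate 1 or 2, which are not part of the contrast but add to the spread of the fit, was left out, with edgeR adjusted p of 0.0281 and 0.0243 for Meox2 and 0.0493 and 0.0484 for Sall1. Sall1, Wt1, Pax2 and Meox2 had both KO-labelled libraries below both Het-labelled ones, an order that 27.6% of all tested genes shared. The 2 groups also differ in sex throughout and in the dissociation genes, of which 2 of 12 were lower in the KO-labelled libraries. With sex as a covariate the log2 change of Meox2 was -1.54 (edgeR adjusted p 0.0358). That fit takes its sex term from the WT- and SmoM2-labelled libraries alone, so it cannot separate sex from genotype in this contrast. Meox2 was at 10.3 CPM in the male and 4.79 CPM in the female WT-labelled library, and at 5.73 and 5.20 CPM in the SmoM2-labelled ones.

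**Figure D2:**
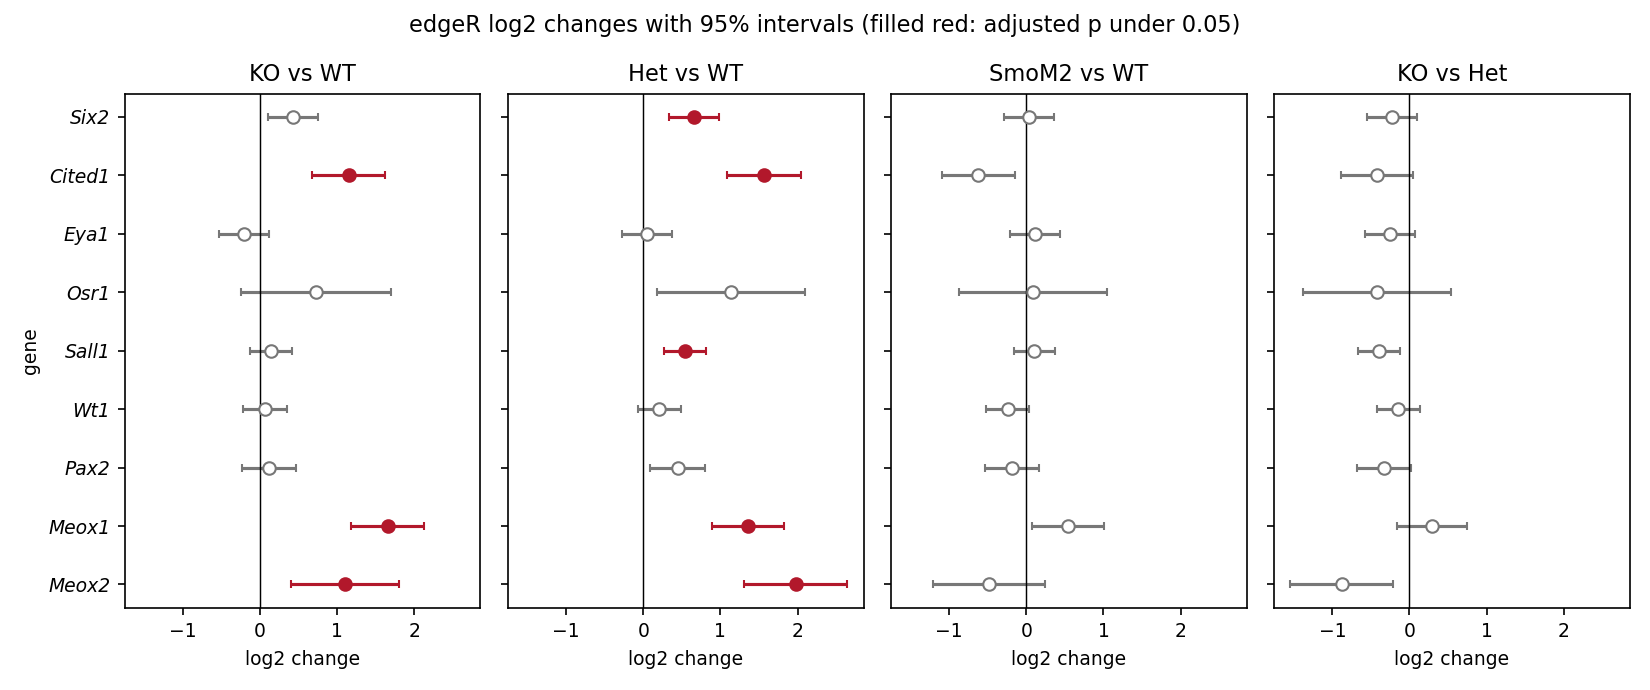
Fitted log2 changes of the 9 factors with unadjusted 95% intervals in 4 comparisons of labelled groups, filled red where the edgeR adjusted p is under 0.05. Filled points are Cited1, Meox1 and Meox2 for KO against WT, those 3 with Six2 and Sall1 for Het against WT, and none in the other 2 panels.

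Against the SmoM2-labelled libraries, which hold the most Smo reads, the KO-labelled libraries had higher Cited1 (log2 change 1.77, edgeR adjusted p 0.000253), Meox2 (1.58, edgeR adjusted p 0.00486) and Meox1 (1.11, edgeR adjusted p 0.00291). These were 3 of 9, where 32.5% of all tested genes passed and 16.5% were higher. In the Het-labelled libraries 7 of 9 were higher than in the SmoM2-labelled ones, where 33.7% of all tested genes passed and 16.9% were higher: Meox2 by 2.46, Cited1 by 2.19, Meox1 by 0.82, Pax2 by 0.63, Six2 by 0.62, Wt1 by 0.45 and Sall1 by 0.44 on the log2 scale. Cited1 and Meox2 passed whichever of the 8 libraries was left out. Sall1, at 0.33 to 0.47, and Wt1, at 0.37 to 0.46, lost the call without any 1 of the 4 Het- and SmoM2-labelled libraries. Six2 lost it without Het-labelled replicate 1 (0.44) or either SmoM2-labelled replicate (0.58 each), Pax2 without either Het-labelled replicate or SmoM2-labelled replicate 1 (0.47 to 0.64), and Meox1 without Het-labelled replicate 2 or either SmoM2-labelled replicate (0.64 to 0.79). Removal of length and GC trends ended the Het-labelled calls on Six2 (0.18, edgeR adjusted p 0.333), Pax2 (0.23, edgeR adjusted p 0.310) and Wt1 (0.29, edgeR adjusted p 0.0956). The dissociation covariate ended those on Pax2 (0.24, edgeR adjusted p 0.564), Wt1 (0.45, edgeR adjusted p 0.219), Sall1 (0.48, edgeR adjusted p 0.178) and Meox1 (0.83, edgeR adjusted p 0.159). Of these log2 changes only that of Pax2 was smaller than in the main fit. With that covariate Osr1 was called (2.20, edgeR adjusted p 0.0472), as it was with sex as a covariate (1.62, edgeR adjusted p 0.00489). The sex term rests on the WT- and SmoM2-labelled libraries, and the male and female WT-labelled libraries lay far apart in Osr1. Osr1 also gained a call against the SmoM2-labelled libraries in 3 cases that left out a WT-labelled library: in the Het-labelled group without replicate 1 or 2 (1.05 and 1.02, edgeR adjusted p 0.00344 and 0.00350) and in the KO-labelled group without replicate 1 (0.63, edgeR adjusted p 0.0483). In the KO-labelled group Six2 also gained one without KO-labelled replicate 2 (0.52, edgeR adjusted p 0.0453) or WT-labelled replicate 1 (0.38, edgeR adjusted p 0.0490), and Eya1 without KO-labelled replicate 2 (-0.53, edgeR adjusted p 0.0375).

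With both conditional genotypes averaged against both Smo +/+ genotypes, so that 4 libraries stood on each side, 8 of 9 factors were higher and none lower. Of all tested genes, 43.5% passed in this contrast and 22% were higher. The log2 changes were 1.78 for Meox2, 1.67 for Cited1, 1.24 for Meox1, 0.89 for Osr1, 0.52 for Six2, 0.37 for Pax2, 0.29 for Sall1 and 0.26 for Wt1. Six2, Cited1, Meox1 and Meox2 had all 4 conditional libraries above all 4 Smo +/+ libraries, which 16.5% of all tested genes did. Eya1 was the exception, at -0.14 with an interval of -0.37 to 0.09. Cited1, Meox1 and Meox2 kept their calls under every alternative run for this contrast. Six2 kept its call whichever single library was left out, but lost it after removal of length and GC trends (0.16, edgeR adjusted p 0.199). That removal also ended the calls on Osr1 (0.62, edgeR adjusted p 0.141), Wt1 (0.13, edgeR adjusted p 0.242) and Pax2 (0.097, edgeR adjusted p 0.539). The dissociation covariate ended those on Sall1 (0.33, edgeR adjusted p 0.263), Wt1 (0.26, edgeR adjusted p 0.402) and Pax2 (0.029, edgeR adjusted p 0.943), and DESeq2 did not call Osr1 (0.88, DESeq2 adjusted p 0.151). Under that covariate only the log2 change of Pax2 became smaller than in the main fit, and those of Sall1 and Wt1 did not. Osr1 lost its call without KO-labelled replicate 1, Het-labelled replicate 1 or either SmoM2-labelled replicate (0.69 to 0.96), and Pax2 without KO-labelled replicate 2, WT-labelled replicate 1, SmoM2-labelled replicate 1 or either Het-labelled replicate (0.26 to 0.36). Sall1 lost it when any 1 library other than KO-labelled replicate 1 and WT-labelled replicate 1 was left out (0.22 to 0.29), and Wt1 when any 1 other than WT-labelled replicate 1 was (0.16 to 0.28). With both Het-labelled libraries left out, an alternative added after their Smo level had been seen, Cited1, Meox1 and Meox2 were still called and the other 5 were not, with 0.37 for Six2 (edgeR adjusted p 0.0574) and 0.059 for Sall1 (edgeR adjusted p 0.741). Erythroid genes rose in this contrast too, all 4 that were tested of the 6 listed, and their part in these values was not tested. Hba-a1 and Hba-a2 among them had identical values in every library and do not count as separate measurements.

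The 3 promoters below belong to 2 factors that moved by more than 2-fold in both conditional groups and to Six2, which moved less, and they let the regulatory sequence be read beside the values. Each is the 250 bases before a RefSeq start site in GRCm38.p6, 5′ to 3′ on the strand of the gene, at chr17:85688255-85688504 (minus strand) for Six2, at chrX:102252182-102252431 (minus strand, the outermost of its 3 listed starts) for Cited1 and at chr12:37108290-37108539 (plus strand) for Meox2. Capitals mark the core promoter motifs TATAAA and CCAAT on either strand, which were chosen after the sequences had been read.
Six2: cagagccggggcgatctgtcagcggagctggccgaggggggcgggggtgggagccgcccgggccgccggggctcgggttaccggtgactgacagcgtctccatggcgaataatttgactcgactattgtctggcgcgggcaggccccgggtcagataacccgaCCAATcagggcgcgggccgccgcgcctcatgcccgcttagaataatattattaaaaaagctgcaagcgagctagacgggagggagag
Cited1: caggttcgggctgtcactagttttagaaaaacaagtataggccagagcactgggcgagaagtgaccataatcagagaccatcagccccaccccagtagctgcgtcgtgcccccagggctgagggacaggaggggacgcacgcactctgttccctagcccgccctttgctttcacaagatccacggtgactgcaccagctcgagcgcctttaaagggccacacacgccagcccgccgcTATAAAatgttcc
Meox2: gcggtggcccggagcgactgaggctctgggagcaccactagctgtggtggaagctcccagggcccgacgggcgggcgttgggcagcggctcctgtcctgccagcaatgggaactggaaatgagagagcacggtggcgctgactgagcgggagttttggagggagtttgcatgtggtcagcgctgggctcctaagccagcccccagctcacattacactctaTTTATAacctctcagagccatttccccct
Cited1 has TATAAA with its first base 13 bases before the start, and Meox2 has it on the opposite strand from 29 bases before the start. Six2 has none and carries CCAAT from 87 bases before the start. Among promoters of the factors, only these printed windows were searched for TATAAA and CCAAT. Whether the marked letters act in these cells was not tested. Of 32851 promoters of mouse genes, 12.4% hold TATAAA and 33.8% hold CCAAT in these 250 bases. The window from 250 bases before to 50 bases after the start was also searched on both strands for a GLI motif (GACCACCCA, in 0.253% of all promoters), a Six2 motif (TCANGTTTC, in 1.08%) and a TCF/LEF motif (ATCAAAG, in 3.73%). None of the 11 listed promoters of Six2, Cited1, Sall1, Pax2 and Meox2 held any of the 3, which says only that these letters are absent from these windows. Eya1, Osr1, Wt1 and Meox1 were not searched.

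Because the cells were sorted through Six2, each factor was also set against Six2 within its own library, which removes the scaling between libraries. Cited1 was 29.3% and 25.5% of Six2 by RPKM in the KO-labelled, 33.3% and 29.1% in the Het-labelled, 18.0% and 15.1% in the WT-labelled and 11.7% and 9.38% in the SmoM2-labelled libraries, so the separation of the groups stayed and the 4 groups did not overlap except KO with Het. Meox2 was 0.893% and 0.888% of Six2 in the KO-labelled, 1.44% and 1.34% in the Het-labelled, 0.697% and 0.380% in the WT-labelled and 0.407% and 0.369% in the SmoM2-labelled libraries. Meox1 was 8.76% and 7.41% in the KO-labelled libraries and between 2.56% and 6.84% in the other 6. The Het-labelled pair, at 4.71% and 6.84%, lay on either side of the SmoM2-labelled pair, at 4.91% and 4.96%. Relative to Six2, Eya1 ran the other way: 8.73% and 14.0% in the KO-labelled and 11.2% and 11.3% in the Het-labelled libraries, below the 15.9% and 18.7% of the WT-labelled and the 19.1% and 17.1% of the SmoM2-labelled libraries. Osr1, Sall1, Wt1 and Pax2 overlapped between the conditional and the Smo +/+ libraries on this scale. These percentages are a description, and no test was made on them. The share of all genes that separate the groups on this scale is not given here. The separation of Cited1, Meox2 and Eya1 therefore does not set them apart from other genes. The percentages are also not adjusted for GC content, which was 62.3% for Six2 and 46.4% for Eya1. In the conditional against the Smo +/+ groups the main fit gave log2 changes of 0.52 for Six2 and -0.14 for Eya1. After removal of length and GC trends these were 0.16 and 0.029, so most of the distance between Eya1 and Six2 was not kept.

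**Figure D3:**
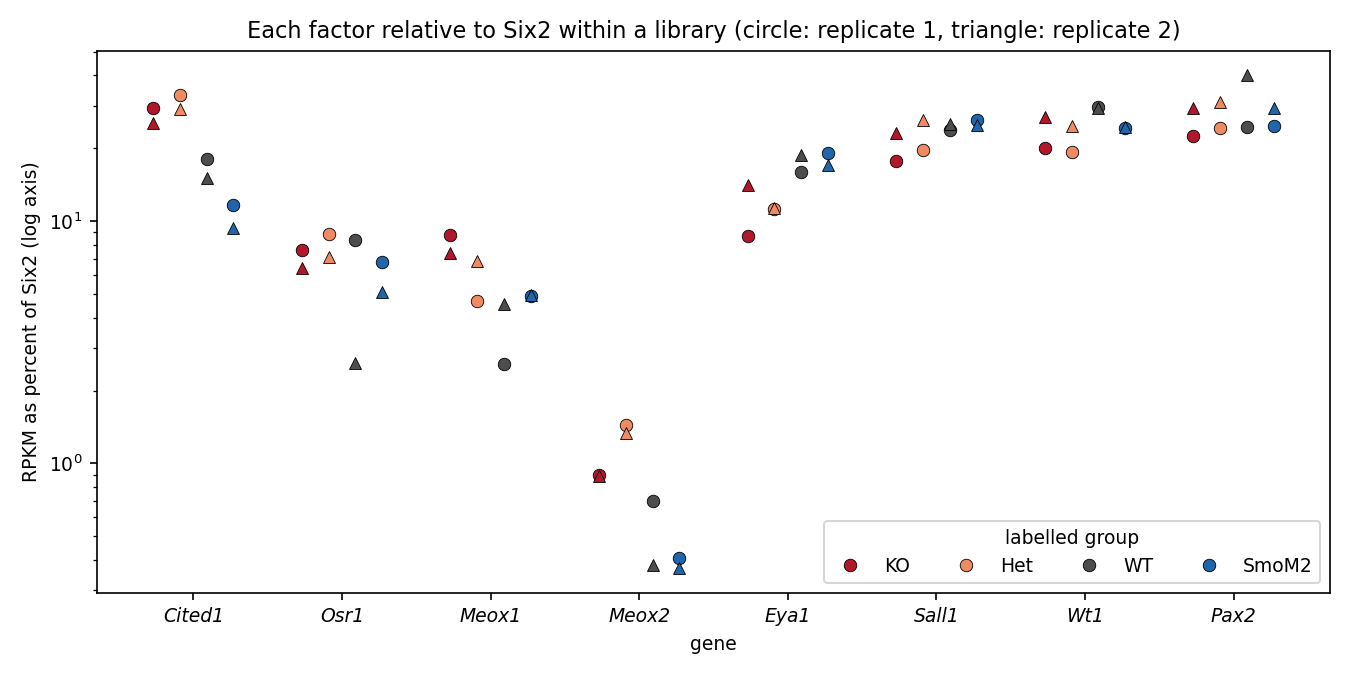
RPKM of each factor as a percent of Six2 in the same library (log axis), with circles for replicate 1, triangles for replicate 2 and colours for the 4 labelled groups. Cited1 and Meox2 stand higher in the KO- and Het-labelled libraries, with Meox2 at 0.888% or more there and at 0.697% or less elsewhere, and Eya1 stands lower there, at 14.0% or less against 15.9% or more. The percentages are not adjusted for GC content, and the share of all genes that separate in this way is not given.

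The shapes of the 9 profiles over the 8 libraries were compared by the root mean square difference of log2 CPM after each gene was centred on its own mean. Cited1 and Meox2 were 0.25 apart, although Cited1 itself had a standard deviation of 0.96 over the libraries and Meox2 one of 1.07. Meox1 was nearest to Six2, at 0.51, and 0.63 from Cited1. Six2, Eya1, Sall1, Wt1 and Pax2, whose own standard deviations were 0.31 or less, lay 0.15 to 0.38 from each other. Among 8680 other genes with an average log2 CPM of at least 4, the nearest to Cited1 were Ism1 and Amigo1, at 0.22 each. Those nearest to Meox2 were Adamts15 (0.22) and Hs3st6 (0.23), and those nearest to Meox1 were 4930426D05Rik and Zfp949 (0.21 each). Btbd2 and Atg4d (0.06 each) were nearest to Six2, Cdc42ep3 (0.36) and Fbxo46 (0.38) to Osr1, Ier5 and Ltbr (0.07 each) to Sall1, Ptdss1 and Wdr6 (0.06 each) to Eya1, Gprasp2 (0.05) and Top3b (0.06) to Wt1, and Tcof1 (0.07) and Efemp2 (0.11) to Pax2. All of these values rest on the same 8 libraries and are descriptions.

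Close relatives of the 9 factors did not move as one group. Of 13 listed paralogs, 11 were tested, and in the KO- against the WT-labelled libraries 4 were higher and 2 lower, with a median log2 change of 0.24. Over all tested genes 23% passed there, 11.6% as higher. Osr2, the paralog of Osr1, was at 9.74 and 10.2 CPM in the KO-labelled libraries and at 1.03 and 2.29 CPM in the WT-labelled ones (log2 change 2.60, edgeR adjusted p 0.00870), while Osr1 itself was not called. Pax8, a paralog of Pax2 that comes on as nephrons form, rose by 1.29 (edgeR adjusted p 0.000141), and Cited2 by 1.12 (edgeR adjusted p 0.00125). Eya4 and Eya2 fell, with log2 changes of -1.29 and -1.09 (edgeR adjusted p 0.000260 and 0.0141), whereas Eya1 was not called. Sall4 had at most 3 counts in every library. In the Het- against the WT-labelled libraries 4 paralogs were higher and 3 lower, where 25.3% of all tested genes passed, and in the SmoM2- against the WT-labelled libraries none passed.

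Of 17 other genes of the cap mesenchyme, 6 were higher and 3 lower in the KO- than in the WT-labelled libraries, where 23% of all tested genes passed, with a median log2 change of 0.16. Traf1 rose by 2.24, Uncx by 0.96, Hoxa11 by 0.91 and Ncam1, a cell adhesion gene, by 0.73, while Bmper, which encodes a BMP-binding protein, Robo2, a Slit receptor, and Gdnf, the ligand that makes the ureteric bud branch, fell, with log2 changes of -2.14, -1.27 and -0.70. The Het-labelled libraries had 8 higher and 2 lower than the WT-labelled ones, where 25.3% of all tested genes passed, with a median of 0.34. Robo2 and Gdnf separated the conditional groups: they were lower in the KO- than in the Het-labelled libraries, with log2 changes of -1.21 and -0.75 (edgeR adjusted p 0.00460 and 0.0444), among 5 such genes of the list, and Tmem100 alone of the 17 was higher, where 9.43% of all tested genes passed. The early differentiation list, genes that come on as progenitors commit, had 9 of 12 higher and none lower in the KO- than in the WT-labelled libraries, where 11.6% of all tested genes were higher, with a median of 1.61. Fgf8 rose by 4.09, Lhx1 by 3.58, Ccnd1 by 1.99, Jag1 by 1.94 and Dll1 by 1.92. In the Het-labelled libraries 2 of 12 were higher, Fgf8 by 3.46 and Pax8 by 0.79, where 13.1% of all tested genes were higher, with a median of -0.00. Set side by side, the 9 progenitor factors had median log2 changes of 0.42 in the KO-labelled and 0.65 in the Het-labelled libraries, and the KO- against Het-labelled contrast gave -0.33 for them and 1.15 for the differentiation genes, of which 7 of 12 were higher, where 9.43% of all tested genes passed in either direction. Lhx1, at 62.2 and 122 CPM in the KO-labelled, was at 4.68 and 9.34 CPM in the Het-labelled and at 4.66 and 10.9 CPM in the WT-labelled libraries.

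**Figure D4:**
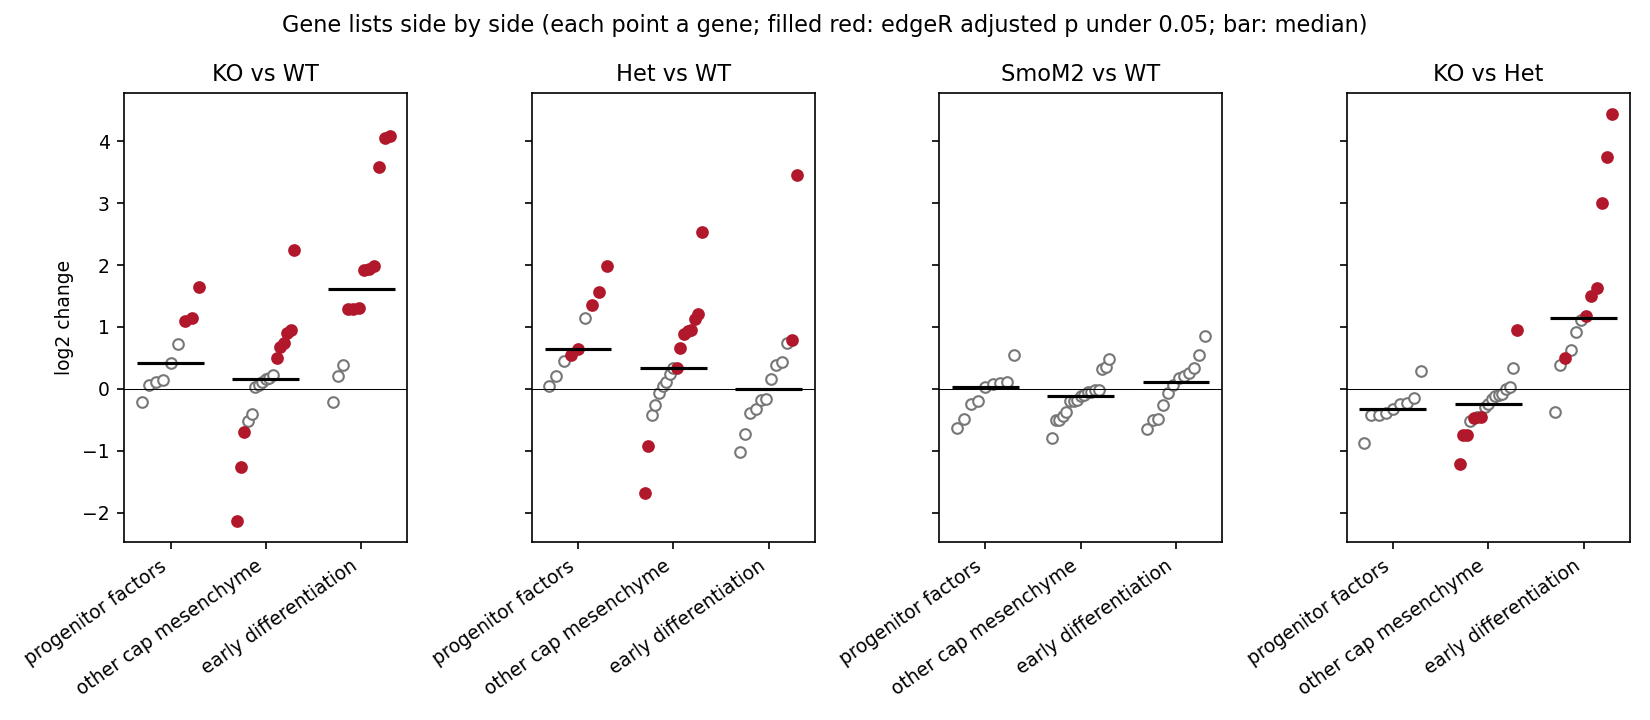
Fitted log2 changes of every tested gene of 3 lists in 4 comparisons of labelled groups, filled red where the edgeR adjusted p is under 0.05, with bars at list medians. In KO against WT the medians are 0.42 for the progenitor factors and 1.61 for the early differentiation genes, in Het against WT they are 0.65 and -0.00, and no gene is filled in SmoM2 against WT.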

How the data were processed

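Polyadenylated RNA of sorted nephron progenitors was sequenced in 8 libraries, 2 per labelled genotype, and all were used. The deposited table gives raw read counts per gene and the authors' RPKM values with a gene length, per the file headers. The submitters' processing notes name STAR, featureCounts, Subread and mm10, and the strand setting is not given in the sources used here. The listed counts were 81.1% to 83.3% of the library totals that the RPKM values imply.

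The test was the quasi-likelihood F test of edgeR 4.0.16 (R 4.3.3). Its filterByExpr function, applied by group, kept 13459 genes, all 9 factors among them. TMM factors scaled the libraries, and 1 fit with group means covered all 8 libraries and had 4 residual degrees of freedom. P-values were two-sided and adjusted over all tested genes by Benjamini-Hochberg, with a threshold of 0.05. Standard errors and 95% intervals are those the quasi-likelihood statistic implies. With 2 libraries against 2, an exact permutation test cannot give a p below 0.333, so none was run. The fit was tested on simulated counts.

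Levels are CPM of the scaled library size, and log2 CPM used a prior count of 2. Means over replicates rest on n = 2.

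The 9 factors and the gene lists were chosen with earlier results of these data known, and nothing here is independent support for a pattern seen before. Named genes are the 9 factors, at most 6 called genes per related list and comparison, the 2 genes nearest to each factor in profile, and Smo with the defining markers as checks. Some genes from the check lists were singled out after their values had been seen. A few genes of the lists are counted but not reported by name here. Promoters and gene positions come from RefSeq for GRCm38.p6. No exon of the 9 factors overlaps another gene in GENCODE. Alternatives were DESeq2 1.42.0, its size factors, no filter, totals implied by RPKM, a replicate block, only the groups compared, sex or dissociation genes as a covariate, removal of length and GC trends, and each library left out in turn. Only the WT- and SmoM2-labelled groups held both sexes, so the sex term of every fit rests on them. The mean level of the dissociation genes differed between groups, most between the Het- and WT-labelled ones. Fits with it as a covariate cannot fully separate it from genotype, and a call lost there does not show that dissociation accounts for a change. Leaving out both Het-labelled libraries was added after seeing the data.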

Additional observations from a re-analysis of the deposited data

How the results depend on the processing

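The values below are counts of the 9 factors past the threshold in a comparison, unless said otherwise, and the cause of each change was not tested. The share of all tested genes past the threshold under each alternative is not given here. A changed count therefore does not set these factors apart from other genes. Without the filter on low counts the counts were 5 for KO against WT, 7 for Het against WT, 2 for SmoM2 against WT, 4 for KO against Het, 5 for KO against SmoM2, 8 for Het against SmoM2, 8 for the conditional groups and 7 for any difference, where the fit with it gave 3, 5, 0, 0, 3, 7, 8 and 6. With the dissociation genes as a covariate they were 1 for Het against WT, 4 for Het against SmoM2, 5 for the conditional against the Smo +/+ groups and 3 for any difference. Removal of length and GC trends gave 4 for Het against SmoM2 and 4 for the conditional against the Smo +/+ groups, with a GC value at hand for 97.9% of tested genes. KO against Het had 1 with DESeq2, 1 with sex as a covariate and 1 with only those groups in the fit. KO against SmoM2 had 5 with totals implied by RPKM. Leaving out both Het-labelled libraries gave 3 for the conditional groups. With single libraries left out the counts ran from 2 to 4 for KO against WT, 4 to 6 for Het against WT, 0 to 0 for SmoM2 against WT, 0 to 2 for KO against Het, 3 to 5 for KO against SmoM2, 2 to 8 for Het against SmoM2, 4 to 7 for the conditional groups and 3 to 8 for any difference.

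The replicate block gave 5 for KO against WT, 7 for Het against WT, 0 for SmoM2 against WT, 2 for KO against Het, 4 for KO against SmoM2, 8 for Het against SmoM2, 8 for the conditional groups and 7 for any difference, where the fit without it gave 3, 5, 0, 0, 3, 7, 8 and 6. The calls it added include Osr1 for KO against WT, Het against WT and Het against SmoM2, Six2 for KO against WT and KO against SmoM2, and Pax2 for Het against WT. The replicate numbers did not pair the libraries across all groups: the differences between replicates correlated between groups at -0.06 to 0.39, and only WT with SmoM2 passed 0.1. In those groups the replicates also differed in sex, in the same order.

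Reversed directions concerned uncalled changes. For KO against WT, removal of length and GC trends gave log2 changes of -0.024 for Wt1 and -0.041 for Pax2, and Pax2 had -0.18 with the dissociation covariate. That covariate also gave Pax2 -0.19 for Het against WT and 0.0074 for KO against Het, where sex as a covariate gave it 0.034. Six2 had -0.0057 for SmoM2 against WT with totals implied by RPKM, and Sall1 -0.016 for KO against SmoM2 with sex as a covariate. Eya1 had 0.12 for Het against SmoM2 and 0.029 for the conditional groups after removal of trends. With single libraries left out, ranges crossed 0 for KO against WT in Wt1 (-0.091 to 0.19) and Pax2 (-0.11 to 0.34) and for Het against WT in Eya1 (-0.11 to 0.14). They did so for SmoM2 against WT in Six2 (-0.063 to 0.16), Osr1 (-0.56 to 1.35), Pax2 (-0.41 to 0.082) and Meox2 (-0.90 to 0.19). Meox1 ran from -0.010 to 0.53 for KO against Het, Sall1 from -0.037 to 0.074 for KO against SmoM2 and Eya1 from -0.23 to 0.021 for Het against SmoM2. Over all factors and comparisons, values under the other alternatives had the same direction and side of the threshold in 521 cases, gained a call in 36, lost one in 27 and reversed in 10. The cases on the same side include changes called in neither fit, so they do not measure how stable the calls were. Fits with a single library left out are not in this tally, and 15 directions reversed among them.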
